A study of Homo sapiens with 13 samples.

Results

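The 61 genes described here are the human zinc finger genes of the short arm and the pericentromeric stretch of chromosome 19. They are the genes with symbols of the ZNF, ZSCAN, ZKSCAN or ZFP series that have an array probe placed on chromosome 19 below position 30 Mb (build 37.1 in the array annotation). Of the array's 42405 probes, 70 met this rule, and 54 of the 61 genes had 1 such probe. The brightest probe stood for each gene. The rule uses no expression value. After the filter on dim probes, 56 of the 61 genes were tested among 28911 features, and ZNF556, ZNF560, ZNF491, ZNF253 and ZNF90 were left out as too dim. A further 309 zinc finger probes have no position in the array annotation. ZNF43, ZNF91 and ZNF93 have probes of that kind and are not among the 61.

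Each of 13 two-colour Agilent 8x60K arrays compared total RNA from treated HEK293T cells with RNA from control HEK293T cells. HEK293T is a kidney-derived human embryonic line transformed with the SV40 large T antigen. Cells given 1 µM UNC0638, which blocks G9a and GLP, methyltransferases of lysine 9 on histone H3, for 48 h were set against cells given DMSO in 5 biological replicates, of which replicates 1 and 2 were hybridised in both dye orientations. Cells transfected with WIZ siRNA were set against cells with scrambled control siRNA at 72 h in 2 biological replicates, both dye-swapped, and cells with G9a siRNA against control siRNA at 72 h in 2 biological replicates with the G9a siRNA RNA in Cy5 only. All groups come from 1 cell line, the siRNA comparisons rest on 2 replicates each, and whether both siRNAs were set against one control RNA is not stated in the labels. Each value is a log2 ratio with the treated RNA on top, so that a negative value means less RNA in the treated cells.

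Most genes of this kind encode proteins with a KRAB domain and an array of C2H2 zinc fingers. The fingers bind DNA, often in transposable elements, and the KRAB domain recruits TRIM28 (KAP1), which brings the methyltransferase SETDB1 and the HP1 proteins to form chromatin marked by trimethylated lysine 9 of histone H3. The zinc finger genes of chromosome 19 arose by tandem duplication, and their own bodies carry this mark, placed there in part through ZNF274. G9a (gene EHMT2) and GLP (gene EHMT1) add mono- and dimethyl marks to the same lysine, and WIZ is a zinc finger protein that binds both enzymes.

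The genes lay in 4 clusters, here joined where neighbours were under 1 Mb apart, with ZNF333 on its own at position 14831167. Cluster 1 held 4 genes between 2853940 and 2933493, cluster 2 held 14 between 7087867 and 9801597, cluster 3 held 18 between 11596540 and 12740240, and cluster 4, next to the centromere, held 24 between 19790730 and 24309903. The clusters differed in their promoters. RefSeq promoter sequences (GRCh38.p14, the 250 bases before the gene's start) matched 53 of the 61 genes. Among 8-letter words counted on both strands, TCCAATCA, a longer form of the CCAAT box, was in 36 of the 53 promoters (67.9%), against 6.99% of 501 promoters of other zinc finger genes and 1.51% of 27303 promoters in the table. A further word, GTCACTCA, was in 25 of the 53 (47.2%), against 6.39% and 1.07% of the same sets. Both words were picked because they were frequent in these promoters. TCCAATCA was in 18 of 18 promoters of cluster 4, in 14 of 18 of cluster 3 and in 4 of 4 of cluster 1, and in 0 of 12 of cluster 2. Where both words were present, in 24 promoters, GTCACTCA came first on the gene's own strand in 24 of them, and in 19 of these 28 to 30 bases lay between the words. That order of the words was found in 0.176% of all promoters. The 5 promoters below belong to genes that fell with UNC0638 and show the arrangement and its absence. The capitals mark TCCAATCA and GTCACTCA, on GRCh38.p14, for ZNF493 (chr19:21396883-21397132, plus strand), ZNF429 (chr19:21505352-21505601, plus strand), ZNF682 (chr19:20039506-20039755, minus strand), ZNF433 (chr19:12035680-12035929, minus strand) and ZNF266 (chr19:9435574-9435823, minus strand), which has neither word.
ZNF493: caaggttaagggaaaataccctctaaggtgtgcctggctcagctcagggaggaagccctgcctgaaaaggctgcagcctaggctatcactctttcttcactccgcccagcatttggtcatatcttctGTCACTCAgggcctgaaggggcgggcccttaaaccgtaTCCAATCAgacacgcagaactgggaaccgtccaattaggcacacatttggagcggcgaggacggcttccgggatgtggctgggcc
ZNF429: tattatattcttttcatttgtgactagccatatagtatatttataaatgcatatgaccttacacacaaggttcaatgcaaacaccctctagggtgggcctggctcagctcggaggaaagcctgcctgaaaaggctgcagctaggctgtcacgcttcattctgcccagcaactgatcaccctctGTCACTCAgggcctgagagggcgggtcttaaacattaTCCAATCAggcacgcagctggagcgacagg
ZNF682: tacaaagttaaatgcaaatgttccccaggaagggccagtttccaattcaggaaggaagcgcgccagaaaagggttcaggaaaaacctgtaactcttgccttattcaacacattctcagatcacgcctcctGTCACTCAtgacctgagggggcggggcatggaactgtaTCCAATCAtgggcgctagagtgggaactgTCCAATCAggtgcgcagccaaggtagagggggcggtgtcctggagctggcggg
ZNF433: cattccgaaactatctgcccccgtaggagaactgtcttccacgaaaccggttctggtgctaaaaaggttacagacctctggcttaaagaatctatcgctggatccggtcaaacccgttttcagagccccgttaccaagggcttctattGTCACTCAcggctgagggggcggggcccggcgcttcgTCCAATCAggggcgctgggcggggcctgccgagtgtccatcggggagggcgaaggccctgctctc
ZNF266: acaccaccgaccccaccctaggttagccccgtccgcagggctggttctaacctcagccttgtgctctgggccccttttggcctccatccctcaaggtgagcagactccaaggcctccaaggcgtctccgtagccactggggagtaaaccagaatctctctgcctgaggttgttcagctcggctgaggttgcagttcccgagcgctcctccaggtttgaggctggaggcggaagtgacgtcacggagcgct

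The genes resemble each other in their finger-coding exons as well, which bears on what a probe can tell apart. A finger word (codons for cysteine, glycine, lysine, alanine and phenylalanine, at the start of a finger) or a linker word (codons for glycine, glutamate, lysine and proline, between fingers), each with any base at a codon's last position, was read on the probe's own strand in 12 of the 61 probes (19.7%), against 8.17% of 404 other zinc finger probes and 0.356% of 18553 array probes with a sequence. Between the probes of any 2 member genes the longest shared run of bases had a median of 6 over 1830 pairs, and 18 pairs shared 18 bases or more, 17 of them within cluster 4. The probes of 3 genes that fell with UNC0638 lie in finger codons. They are ZNF57 (chr19:2917775-2917834, plus strand), ZNF433 (chr19:12125780-12125839, minus strand) and ZNF429 (chr19:21720226-21720285, plus strand), with the finger word in capitals. Values of the finger-codon probes may include RNA of near-identical relatives.
ZNF57: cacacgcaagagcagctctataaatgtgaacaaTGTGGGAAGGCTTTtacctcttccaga
ZNF433: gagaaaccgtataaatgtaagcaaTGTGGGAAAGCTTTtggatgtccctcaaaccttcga
ZNF429: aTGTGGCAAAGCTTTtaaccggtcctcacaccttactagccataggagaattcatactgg

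Arrays had a median spot intensity of 194 to 415 (Cy3) and 151 to 638 (Cy5), with a median background of 28 to 30 (Cy3) and 45 to 68 (Cy5), and 39 of the 56 tested members were above background in both channels of all 13 arrays. The targeted transcripts were used to decide which intensity column was Cy3, so their direction is no separate check of the labels. WIZ stood at -2.12 ± 0.21 under WIZ siRNA, 23.1% of control siRNA, and EHMT2 at -1.66 ± 0.01 under G9a siRNA, 31.6% of control siRNA (mean ± SD, n = 2 each, limma adjusted p = 0.00141 and 0.00234). The labels name no slide or scan. The smallest background SD of any Cy3 spot was 4 or 5 on 8 arrays and 11 on the other 5, which gives 2 sets, set 1 holding both WIZ siRNA replicates and UNC0638 replicates 1 and 2, and set 2 holding UNC0638 replicates 3 to 5 and both G9a siRNA arrays. Over all features, log2 ratios had an SD of 0.17 in UNC0638 replicates 1 and 2, 0.51, 0.27 and 0.29 in replicates 3 to 5, 0.17 in both WIZ siRNA replicates, and 0.49 and 0.61 in the G9a siRNA replicates. The SDs of 0.17 are those of means of 2 dye-swapped arrays, the others of single arrays. Per array, over probes that passed the filter, the SD was 0.22 to 0.24 in UNC0638 replicates 1 and 2. It was 0.26 to 0.38 with WIZ siRNA, and 0.50, 0.27 and 0.31 in UNC0638 replicates 3 to 5. All 8 HEK-type markers were above background on the control side of all 13 arrays, as were 5 of 12 markers of blood, liver, endothelium, muscle and red cells.

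UNC0638 lowered some of these genes and raised none past the threshold. Of the 56 tested members, 9 fell and 0 rose (16.1% past a limma adjusted p of 0.05), against 3.63% of all features in either direction, 1.89% downward and 1.75% upward. The median member stood at -0.18, against -0.01 over all features. Below 0 were 46 of 56 members (82.1%), against 54.3% of all features. Among other named genes of the same stretch that share was 81.1%. The authors' log10 table gave 1 member up and 1 down, with no share of all features given here. In bulk RNA, fewer cells that express a gene and less RNA in each cell cannot be told apart.

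The lowest was ZNF266, a KRAB zinc finger gene of cluster 2. It stood at -0.51, -0.80, -0.41, -0.33 and -0.76 in UNC0638 replicates 1 to 5, a mean of -0.56 ± 0.21 (SD, n = 5) or 67.7% of DMSO (limma adjusted p = 0.00578). All 5 replicates were below the control level, and replicates of set 1 and set 2 overlapped. ZNF493, a KRAB gene of cluster 4, stood at -0.61, -0.43, -0.73, -0.68 and -0.21, a mean of -0.53 ± 0.21 or 69.1% of DMSO (adjusted p = 0.00578, limma). Replicate 5 was the least lowered, and its 3 other probes had means of -0.14, -0.34 and -0.44, of which the first is placed by the annotation at position 23405767, away from the others. ZNF177, next to ZNF266 on the chromosome, stood at -0.93, -0.75, -0.09, -0.29 and -0.41, a mean of -0.49 ± 0.34 or 71.0% of DMSO (adjusted p = 0.0378, limma). Replicates 1 and 2 were lower than the other three in ZNF177.

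In cluster 3, ZNF433 stood at -0.75, -0.44, -0.28, -0.40 and -0.42 in UNC0638 replicates 1 to 5, a mean of -0.46 ± 0.18 (72.9% of DMSO, limma adjusted p = 0.0109). Its neighbour ZNF625 stood at -0.46, -0.30, -0.61, -0.43 and -0.17, a mean of -0.39 ± 0.17 (76.1% of DMSO, limma adjusted p = 0.0215). Both genes were below DMSO in all 5 replicates. The dimmer second probe of ZNF625 averaged 0.06 instead, and with its probes averaged the gene stood at -0.17 and was no longer past the threshold.

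In cluster 4, ZNF682 stood at -0.53, -0.20, -0.48, -0.42 and -0.41 (mean -0.41 ± 0.13, limma adjusted p = 0.00735), but it was dim, above background in the UNC0638 RNA of 1 of 7 arrays and the DMSO RNA of 4 of 7. Its size moved with the background correction, to -0.97 with the authors' log2 ratios and -1.10 with their log10 table, where it did not pass, so no percentage is given. ZNF429 stood at -0.45, -0.36, -0.06, -0.38 and -0.40 (mean -0.33 ± 0.15, 79.6% of DMSO, limma adjusted p = 0.0211), with replicate 3 apart from the other four. In cluster 1, ZNF57 stood at -0.40, -0.41, -0.21, -0.20 and -0.60 (mean -0.36 ± 0.17, 77.6% of DMSO, limma adjusted p = 0.012). In all 3 genes each of the 5 replicates was below DMSO. In cluster 2, ZNF317, a KRAB gene, stood at -0.20, -0.36, -0.11, -0.37 and -0.53 (mean -0.31 ± 0.16, 80.5% of DMSO, limma adjusted p = 0.0276), where replicates 1 and 2 averaged -0.62 with the UNC0638 RNA in Cy3 and 0.05 with it in Cy5. The other 8 genes were below DMSO in both orientations of these replicates. The plot of the 9 genes by replicate shows these values beside those under the siRNAs.

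**Figure D1:**
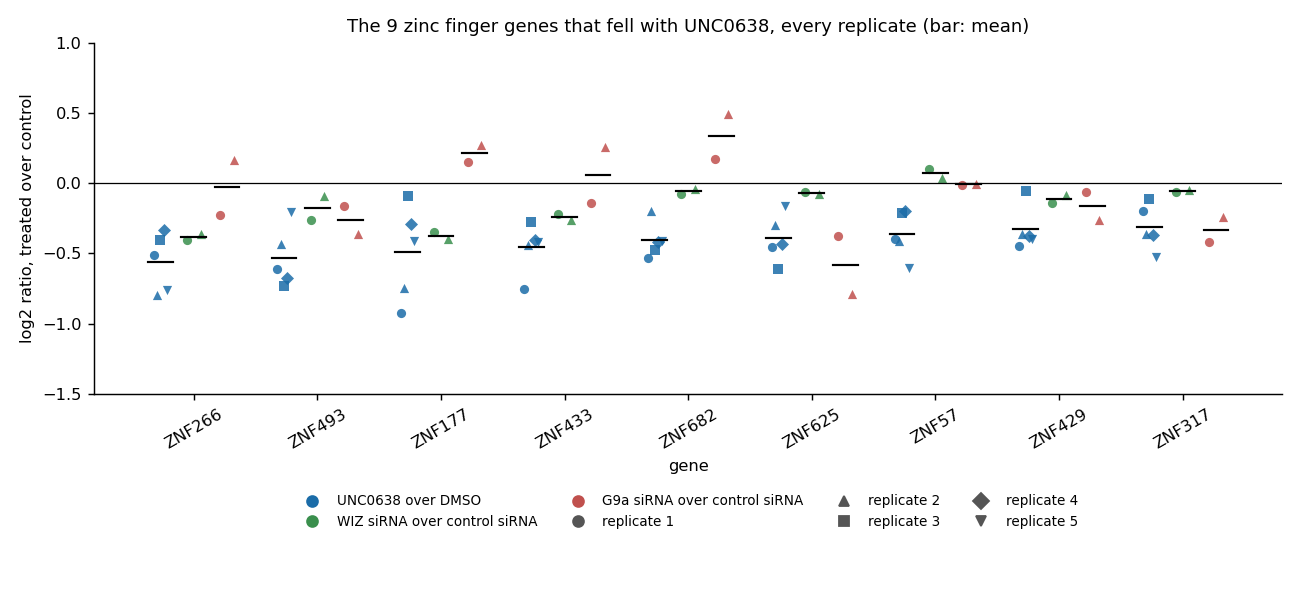
Log2 ratio of treated over control RNA (y axis) for the 9 members that fell with UNC0638 (x axis), with 1 point per biological replicate and a bar at the mean, for UNC0638 over DMSO, WIZ siRNA over control siRNA and G9a siRNA over control siRNA. All UNC0638 points lie below 0, while the G9a siRNA points of ZNF682 and ZNF177 lie above 0.

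The size of the shift differed between replicates. The member median was -0.36 and -0.33 in UNC0638 replicates 1 and 2, where 50 and 55 of 56 members were below 0, and 0.00, -0.14 and -0.12 in replicates 3 to 5, where 27, 38 and 39 were. On the dye-swapped arrays of replicates 1 and 2 the medians ranged from -0.36 to -0.31. Across genes, 17 of 56 members were below DMSO in all 5 replicates and 1, ZNF558, was above it in all 5. Fitted within set 1 alone, 36 members fell with UNC0638 (64.3%, against 4.45% of all features called in that fit), and within set 2 alone 0 did (0.401% of all features). With the set as a block 17 fell (4.91% of all features called), without replicate 3 it was 16, without replicate 4 it was 5, and without either WIZ siRNA replicate, which only lend their spread to the fit, it was 5. For the fits with a replicate left out, the share of all features called is not given here, so those counts have no background beside them. The part of the set in these counts was not tested. The plot of medians by replicate sets these values beside other gene sets.

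**Figure D2:**
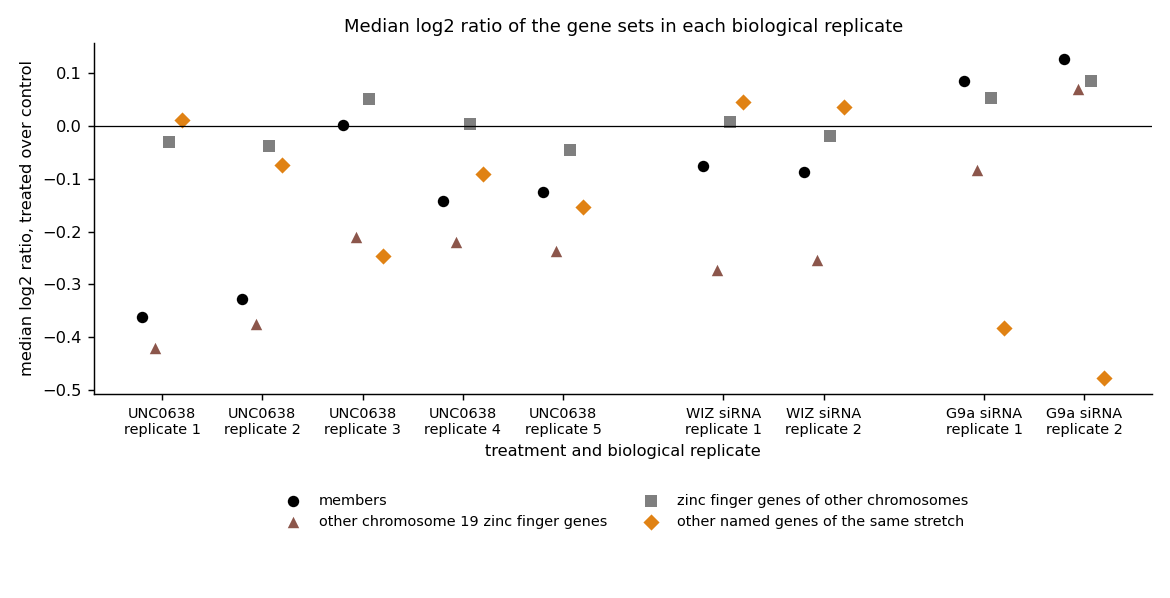
Median log2 ratio of treated over control (y axis) in each biological replicate (x axis) for the 56 tested members, 103 zinc finger genes further along chromosome 19, 220 zinc finger genes of other chromosomes and 323 other named genes of the same stretch of chromosome 19. The members stand at -0.36 and -0.33 in UNC0638 replicates 1 and 2 and between -0.14 and 0.00 in replicates 3 to 5.

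By cluster, the median under UNC0638 was -0.23 over 3 tested genes of cluster 1, -0.03 over 13 of cluster 2, -0.13 over 17 of cluster 3 and -0.23 over 22 of cluster 4, where 21 of 22 genes were below 0. Cluster 2 held both extremes, with ZNF266 and ZNF177 low and ZNF558 and ZNF121 at the upper end. The highest members were ZNF333, a KRAB gene outside the clusters (0.11, -0.04, 0.38, 0.23 and 0.13, mean 0.16, limma adjusted p = 0.186), ZNF558 (mean 0.11, limma adjusted p = 0.183) and ZNF121 (mean 0.11, limma adjusted p = 0.659). A dimmer probe of ZNF333 without a position averaged -0.01 with UNC0638. ZNF121 ranged from -0.43 in replicate 1 to 0.66 in replicate 5. None of these 3 passed. Members with TCCAATCA in the promoter had a median of -0.21 under UNC0638 (33 tested, 6 fell), and those without it -0.12 (16 tested, 3 fell).

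**Figure D3:**
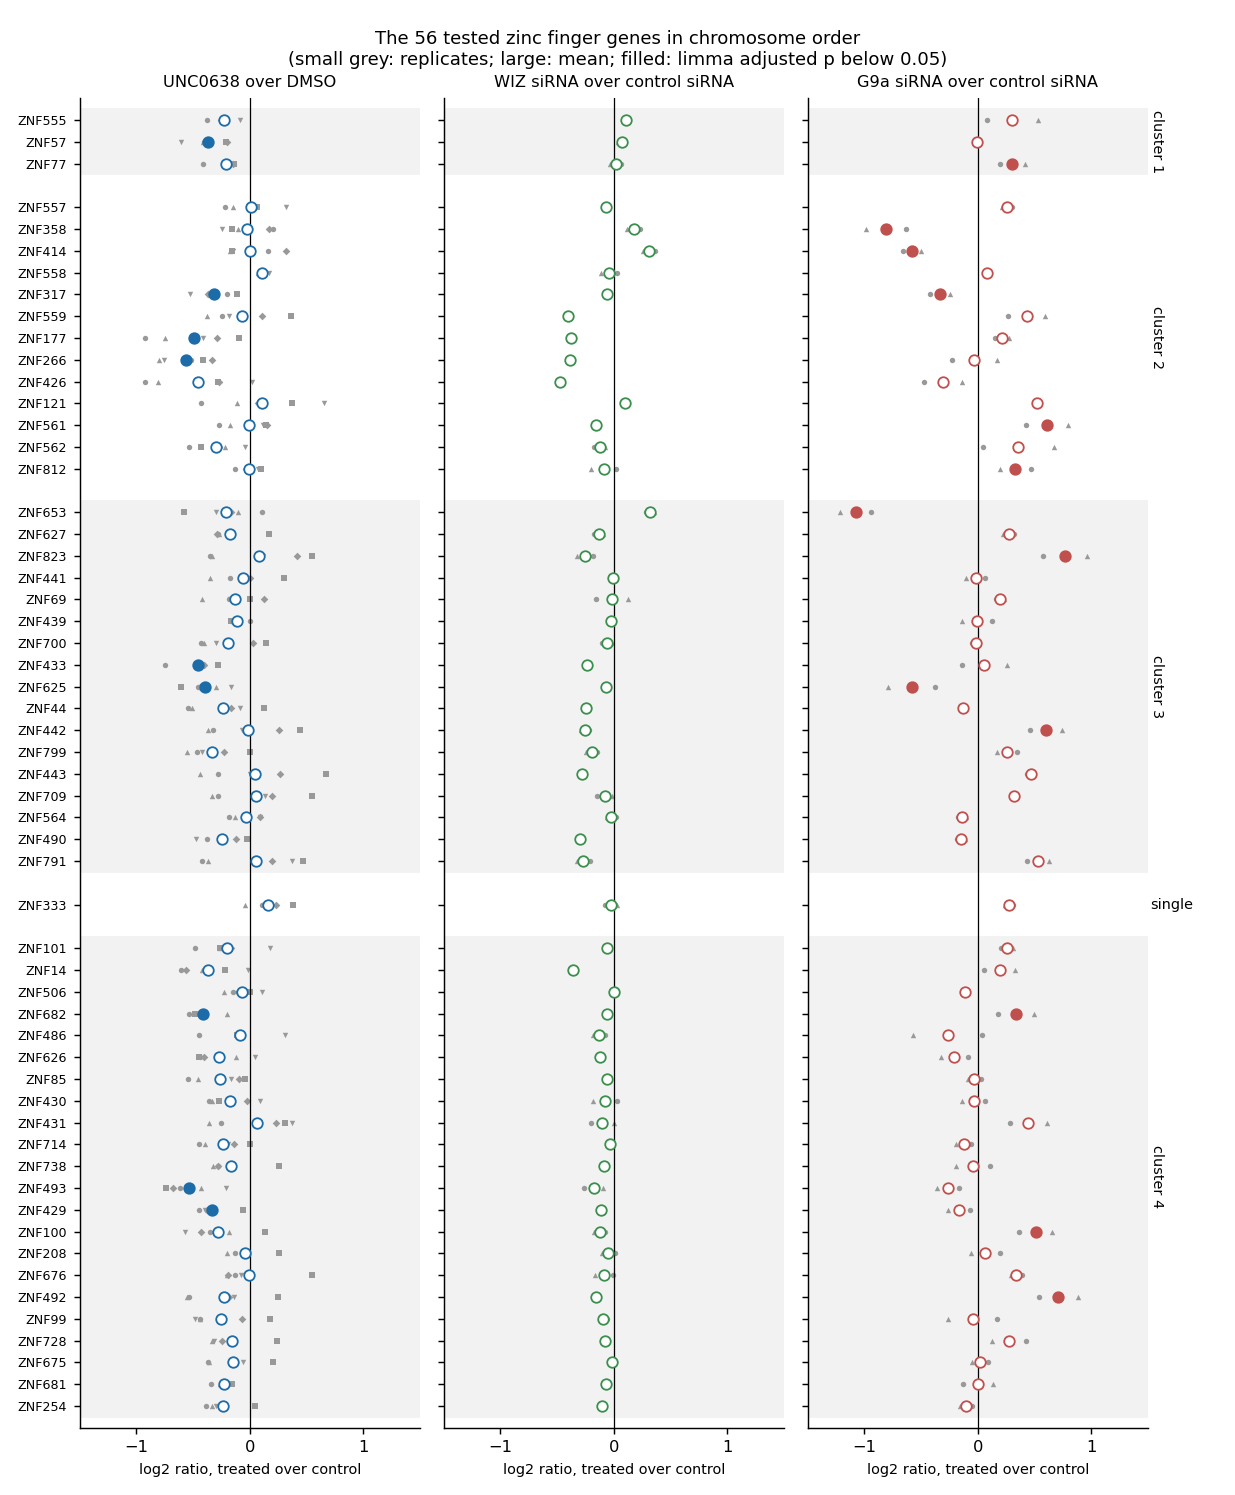
Log2 ratio of treated over control RNA (x axis of each panel) for the 56 tested members, listed from top to bottom in chromosome order and grouped by cluster. Small grey points are biological replicates (5, 2 and 2), large points their mean, filled where the limma adjusted p was below 0.05, which holds for 9 members with UNC0638, 0 with WIZ siRNA and 13 with G9a siRNA.

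None of 4 further tested members of cluster 4 passed with UNC0638. ZNF85 averaged -0.26 ± 0.23 with UNC0638 (limma adjusted p = 0.112), and ZNF675, which encodes a protein that binds TRAF6 and dampens its signalling, averaged -0.14 ± 0.24 (adjusted p = 0.335, limma). ZNF208 averaged -0.04 ± 0.17 and ZNF431 0.06 ± 0.34 (limma adjusted p = 0.798 for both). ZNF253 was too dim to test.

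Of the members, 5 have a brighter probe that the annotation gives no position, and for 4 of them it read lower than the positioned one with UNC0638. Brighter probes under the symbols ZNF441, ZNF100, ZNF561 and ZNF562 averaged -0.80, -0.72, -0.52 and -0.37 with UNC0638 (limma adjusted p = 0.00122, 0.00193, 0.00245 and 0.0258). The positioned probes of the same genes averaged -0.06, -0.28, -0.01 and -0.30 and did not pass. That of ZNF430 averaged -0.14, against -0.18 for its positioned probe, and neither passed. Dimmer probes without a position differed from the positioned ones in both directions and were not tested. For ZNF738 such a probe averaged -0.88 with UNC0638, against -0.16, and for ZNF266 -0.36, against -0.56. Counting the brightest probe under each symbol, with or without a position, 13 members fell with UNC0638 and 0 rose. The share of all features called in that fit is not given here, so this count has no background beside it. These probes were looked at after the values were seen.

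No member passed the threshold with WIZ siRNA, and most had values slightly below 0. With limma, 0 of 56 members passed, against 0.616% of all features (0.536% downward and 0.0796% upward), and 7 members had an unadjusted p below 0.05. The median member stood at -0.08, with -0.08 and -0.09 in replicates 1 and 2, against 0.01 over all features. Below 0 were 48 of 56 members (85.7%), against 45% of all features. The array medians lay between -0.13 and -0.10 in both dye orientations, but single genes differed by dye, and 32 of 56 members had opposite signs in the 2 orientations.

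The lowest members with WIZ siRNA lay side by side in cluster 2. ZNF426 stood at -0.50 and -0.45 (mean -0.47, 72.0% of control siRNA, limma adjusted p = 0.583), ZNF559 at -0.40 in both replicates (75.8%, adjusted p = 0.541) and ZNF266 at -0.41 and -0.36 (76.7%, adjusted p = 0.393). ZNF177, between them, stood at -0.35 and -0.40 (77.1%, adjusted p = 0.636). In all 4 genes both replicates lay below control siRNA once the dye orientations were averaged. ZNF426 and ZNF559 were below it in both orientations, while ZNF177 averaged -0.87 with the WIZ siRNA RNA in Cy3 and 0.12 with it in Cy5, and ZNF266 -0.03 and -0.74. The highest were ZNF653 at 0.29 and 0.36, ZNF414 at 0.37 and 0.26 and ZNF358 at 0.23 and 0.12 (limma adjusted p = 0.6, 0.533 and 0.935). These 3 averages also join orientations of opposite sign, at 0.84, 0.90 and 0.74 with the WIZ siRNA RNA in Cy3 and -0.20, -0.27 and -0.39 with it in Cy5. Where WIZ siRNA was fitted on its own replicates, 16 members fell and 3 rose (33.9%, against 23.8% of all features called in that fit), and within set 1 alone 11 fell and 1 rose (21.4%, against 9.88%).

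G9a siRNA changed members in both directions. With limma, 8 of 56 rose and 5 fell (23.2%), against 33.2% of all features, 15% upward and 18.2% downward, so that the share of members called was below the background. Array medians in place of the intensity-dependent curve gave 2 higher and 10 lower, and the authors' log10 ratios 7 higher and 2 lower. For these fits, and for that without UNC0638 replicate 3, no share of all features is given here, so the counts have no background. Without replicate 2, 0 members and 0 features passed, and without UNC0638 replicate 3, which only lends its spread, 16 rose and 5 fell. The member median was 0.06, with 0.09 and 0.13 in replicates 1 and 2.

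The 5 genes that fell with G9a siRNA included 3 that are not typical KRAB genes. ZNF653, which encodes a repressor of the nuclear receptor SF-1, stood at -0.94 and -1.21 (mean -1.08 ± 0.19, 47.4% of control siRNA, limma adjusted p = 0.00288). ZNF358, a zinc finger gene without a KRAB domain, stood at -0.64 and -0.99 (57.0%, adjusted p = 0.00322), and ZNF414, likewise without one, at -0.66 and -0.50 (66.8%, adjusted p = 0.00754). With the GC trend of the probes removed, ZNF653 stood at -0.80 and passed, while ZNF358 stood at -0.19 and ZNF414 at -0.31 and neither passed (limma adjusted p = 0.174 and 0.0546). The G9a siRNA RNA was in Cy5 only, the orientation in which these 3 genes also averaged below 0 with WIZ siRNA, and with a dye effect subtracted they stood at -0.87, -0.55 and -0.35, of which the last did not pass (limma adjusted p = 0.087). In all 3 both replicates lay below control siRNA, and the 5 UNC0638 replicates of ZNF358 and ZNF414 lay on both sides of 0. ZNF625 stood at -0.38 and -0.79 (66.7%, limma adjusted p = 0.00628), but its second probe averaged 0.35. ZNF317 stood at -0.42 and -0.24 (79.4%, limma adjusted p = 0.0307). ZNF317 and ZNF625 are the members that fell in both the UNC0638 and the G9a siRNA comparison. With G9a siRNA 18.2% of all features fell, and the share that fell in both comparisons is not given here.

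The genes that rose lay in all 4 clusters, with 1, 2, 2 and 3 in clusters 1 to 4. ZNF823 stood at 0.58 and 0.96 (mean 0.77 ± 0.27, 170% of control siRNA, limma adjusted p = 0.0216) and ZNF492 at 0.54 and 0.89 (mean 0.71 ± 0.25, 164%, adjusted p = 0.013). ZNF561 stood at 0.42 and 0.79 (152%, limma adjusted p = 0.00652), but its brighter probe without a position averaged 0.23 and did not pass (limma adjusted p = 0.115). ZNF442 stood at 0.46 and 0.74 (151%, adjusted p = 0.0317) and ZNF100 at 0.36 and 0.66 (142%, adjusted p = 0.0267). In each of these 5 genes replicate 2 was higher than replicate 1, and both were above control siRNA. The G9a siRNA RNA was in Cy5 only. With the WIZ siRNA RNA in Cy3 and in Cy5, ZNF492 averaged -0.47 and 0.16, and ZNF100 -0.30 and 0.05. ZNF823, ZNF442 and ZNF561 were below 0 in both orientations with WIZ siRNA. Over UNC0638 replicates 1 and 2 all 5 genes were below 0 in both orientations. There ZNF492 averaged -0.63 in Cy3 and -0.46 in Cy5, and ZNF100 -0.28 and -0.25. ZNF682 stood at 0.17 and 0.49 (limma adjusted p = 0.0294), where its probe was above background in the G9a siRNA RNA of 1 array of 2. Its mean was 0.68 with the authors' log2 ratios and 0.07 with the GC trend removed, where it did not pass, and a dimmer probe that was not tested averaged -0.19. ZNF812, now listed as a pseudogene, passed at 0.47 and 0.19 (limma adjusted p = 0.0241), but it was above background in the G9a siRNA RNA of 0 of 2 arrays, so no fold is given for it. ZNF77 of cluster 1 had the smallest mean of the 8, at 0.31 (limma adjusted p = 0.028), and is named after its value was seen. ZNF77, ZNF682 and ZNF812 averaged -0.18, -0.21 and -0.19 with the WIZ siRNA RNA in Cy3. With it in Cy5 they averaged 0.21, 0.09 and 0.01. Over UNC0638 replicates 1 and 2 these 3 genes averaged -0.26, -0.53 and -0.17 in Cy3, and -0.34, -0.20 and 0.01 in Cy5.

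**Figure D4:**
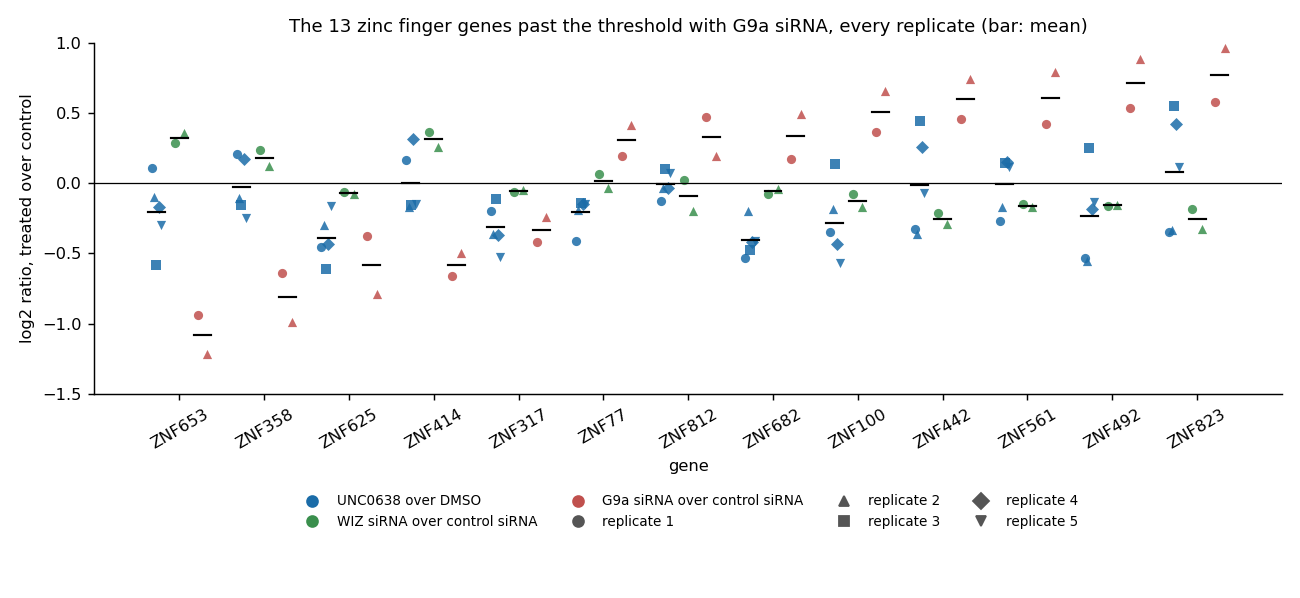
Log2 ratio of treated over control RNA (y axis) for the 13 members past the threshold with G9a siRNA (x axis), with 1 point per biological replicate and a bar at the mean, for UNC0638 over DMSO, WIZ siRNA over control siRNA and G9a siRNA over control siRNA. The G9a siRNA points of ZNF653, ZNF358 and ZNF414 lie between -1.21 and -0.50, while their WIZ siRNA points, each a mean of 2 dye orientations of opposite sign, lie above 0.

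The base composition of the probes moved with these values. The 56 probes had a median GC content of 40%, from 26.7% to 65%, against 43.3% over 13911 other tested probes with a sequence. Over the 56 members, which share the same arrays, the correlation of the mean log2 ratio with probe GC content was -0.11 with UNC0638, 0.36 with WIZ siRNA and -0.56 with G9a siRNA. Among the 5 members with 50% GC or more, 4 fell with G9a siRNA and 0 rose (median -0.58), and among the 51 others 1 fell and 8 rose (median 0.19). Over all features of 50% GC or more the medians in the G9a siRNA replicates were -0.32 and -0.43, and over those of 35 to 40% they were 0.18 and 0.24. UNC0638 replicate 3 showed the like, with -0.22 and 0.18. With the GC trend removed from each array, 8 members rose and 7 fell with G9a siRNA and the median was -0.01. In the same fit 19 members fell with UNC0638 and 0 rose. That fit held the 56 members and 13911 other features with a probe sequence. Of all its features, 6318 passed with G9a siRNA and 836 with UNC0638. The part of base composition in the single calls was not tested further.

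**Figure D5:**
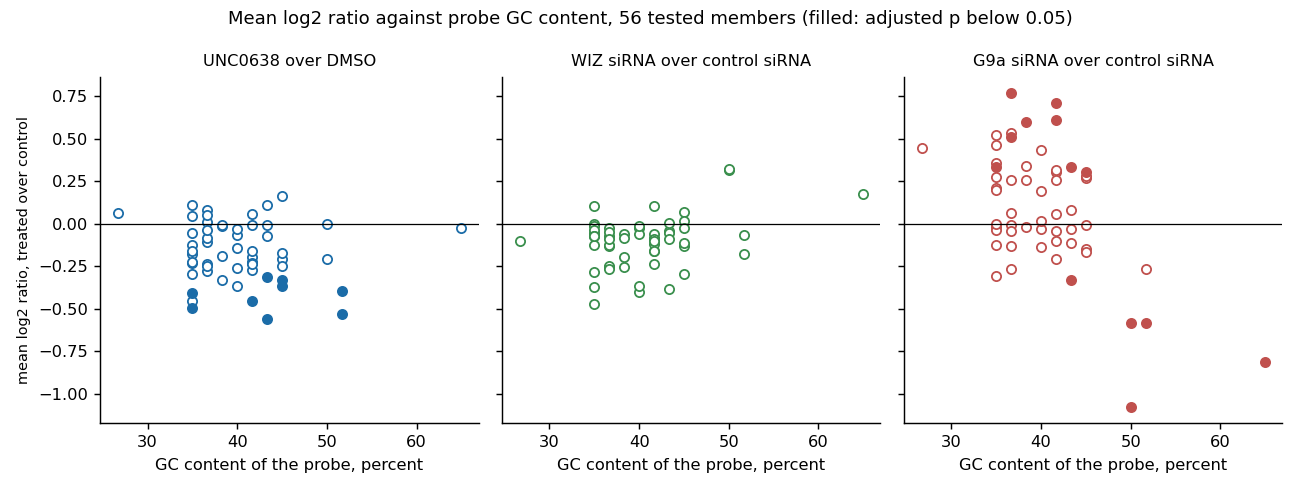
Mean log2 ratio of treated over control (y axis) against the GC content of the probe in percent (x axis) for the 56 tested members in each treatment, filled where the limma adjusted p was below 0.05. The 5 members with 50% GC or more all lie below 0 with G9a siRNA, and 4 of them are called.

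The treatments were set against each other in the same fit, with the difference in time (48 h for UNC0638, 72 h for the siRNAs) contained in the contrast. G9a siRNA minus UNC0638 passed for 13 members, 10 upward and 3 downward (limma, against 12.7% of all features, 6.08% upward and 6.58% downward). For the dim probe of ZNF682 the difference was 0.74 (limma adjusted p = 0.0173), with the limits on its G9a siRNA value given above. The difference was 0.94 for ZNF492, 0.79 for ZNF100 and 0.61 for ZNF561 (limma adjusted p = 0.0259, 0.0265 and 0.0328), and -0.87, -0.79 and -0.58 for ZNF653, ZNF358 and ZNF414 (limma adjusted p = 0.0212, 0.0216 and 0.0369). ZNF433 differed by 0.51 (adjusted p = 0.0469, limma). Within set 2, which holds UNC0638 replicates 3 to 5 beside the G9a siRNA arrays, 0 members differed. In that fit 0 of all 28911 features passed, so the count says nothing particular to the members. The split under array medians was 3 upward and 3 downward, with the authors' log2 ratios 2 and 2, with the GC trend removed 14 and 1, and without UNC0638 replicate 4 it was 1 and 1.

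G9a siRNA minus WIZ siRNA passed for 8 members, 5 upward and 3 downward (limma, against 19.8% of all features, 8.88% upward and 10.9% downward). All WIZ siRNA arrays are in set 1 with both dye orientations and all G9a siRNA arrays in set 2 with 1, so treatment, set and dye cannot be told apart in this contrast. The downward ones were ZNF653, ZNF414 and ZNF358 at -1.40, -0.89 and -0.99 (limma adjusted p = 0.00801, 0.0135 and 0.0117), and the upward ones included ZNF823 at 1.02, ZNF492 at 0.87 and ZNF559 at 0.83 (limma adjusted p = 0.0421, 0.0374 and 0.0336). Array medians gave 1 upward and 4 downward, the authors' log2 ratios 2 and 3, and without either WIZ siRNA replicate or without G9a siRNA replicate 2 none passed. WIZ siRNA minus UNC0638 passed for 0 members (limma, against 0.841% of all features, 0.0934% upward and 0.747% downward, with 6 members at an unadjusted p below 0.05). Within set 1, which holds WIZ siRNA replicates beside UNC0638 replicates 1 and 2, 10 members passed and all were higher with WIZ siRNA. That was 17.9% of members, against 4.59% of all features called in that fit.

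The 9 members that fell with UNC0638 were set beside the siRNA comparisons as values only. Their median was -0.41 with UNC0638, -0.11 with WIZ siRNA, where 8 of 9 were below 0 and 0 passed, and -0.03 with G9a siRNA, where 6 of 9 were below 0, 2 fell and 1 rose. Over all features 18.2% fell and 15% rose with G9a siRNA. Over the 13 arrays the profiles most like that of ZNF266 were ZNF69 (r = 0.87), ZNF254 (0.75) and ZNF714 (0.67). The array annotation names the probe of ZNF69 for ZNF440 as well. It names the probe of ZNF714 for ZNF708 as well and gives it 2 places. The probes of ZNF714 and ZNF254 share a run of 32 bases, so they may not be separate readings. The profiles most like ZNF426, the lowest with WIZ siRNA, were ZNF121 (0.77), ZNF433 (0.76) and ZNF561 (0.71), and those most like ZNF653 were ZNF358 (0.94), ZNF414 (0.90) and ZNF625 (0.65). These are descriptions over 13 arrays that share samples and dyes.

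Zinc finger genes further along chromosome 19 moved in the same direction with UNC0638. Of 103 tested there, 36 fell and 1 rose with UNC0638 (median -0.26), 3 fell with WIZ siRNA (median -0.27), and 25 fell and 14 rose with G9a siRNA. Of 220 zinc finger genes on other chromosomes, 15 fell and 3 rose with UNC0638 (median -0.02). The 323 other named genes of the same stretch had medians of -0.11 with UNC0638, 0.04 with WIZ siRNA and -0.42 with G9a siRNA, where 188 fell and 6 rose. Of these 323 genes, 262 were below 0 with UNC0638 (81.1%, against 82.1% of members), where 19 fell and 1 rose. No test of the difference between these sets was made.

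The partners of zinc finger silencing were read from a list of 28 genes, all tested. With UNC0638, MORC2, an ATPase that acts with the HUSH complex, fell by 0.28 and TASOR, a HUSH subunit, rose by 0.33 (limma adjusted p = 0.0468 and 0.0322). With WIZ siRNA the list's 1 change was WIZ itself. With G9a siRNA 6 fell, among them the targeted EHMT2, and 8 rose, where 18.2% of all features fell and 15% rose. These G9a siRNA values come from 1 dye orientation and are not corrected for dye or for probe GC content. TRIM28, the corepressor that KRAB domains bind, was at 61.8% of control siRNA (log2 -0.70 ± 0.19, limma adjusted p = 0.00289). SUV39H1, which trimethylates lysine 9 of histone H3, was at 54.8% (log2 -0.87 ± 0.21, limma adjusted p = 0.00288). SUV39H2, listed beside it, rose to 149% (log2 0.58 ± 0.26, limma adjusted p = 0.00534). DAXX, a histone H3.3 chaperone, was at 55.7%, and its partner ATRX at 248% of control siRNA (limma adjusted p = 0.00308 and 0.00289). The HP1 genes CBX1, CBX3 and CBX5 rose by 0.61, 0.57 and 0.67 on the log2 scale (limma adjusted p = 0.00308, 0.00349 and 0.0286). TASOR, HDAC2 and RIF1 also rose, to 157%, 192% and 206% of control siRNA, and MORC2 and NSD1 also fell, to 74.7% and 70.2%. SETDB1 averaged 0.13 and did not pass (limma adjusted p = 0.236), and ZNF274 averaged -0.43, -0.33 and -0.49 in the 3 treatments without passing (limma adjusted p = 0.0825, 0.797 and 0.0718).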

How the data were processed

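Total RNA of treated and control HEK293T cells was measured on 13 two-colour arrays. The array files hold the authors' deposited spot and background intensity per channel, uncorrected, and a deposited log2 ratio that is background-subtracted and normalized by brightness, per the file headers. The deposited percent of saturated pixels per spot was 0 on all arrays, per the file headers of that column. A deposited table of the series holds the authors' log10 ratios, whose centring and filter are not given in the sources used here. Its columns ran control over treated on 8 arrays and treated over control on 5 when set against each array's own ratio, and were turned. The dye of each RNA came from the labels, but which intensity column holds which dye is not stated. The first was read as Cy3 and the second as Cy5, since WIZ and EHMT2 are then lower on every array of their knockdowns.

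The mean spot and median background intensity of 62976 spots entered normexp (offset 50), then loess within arrays with 4259 control spots at weight 0 (limma 3.58.1, R 4.3.3). Ratios were turned to treated over control, dye-swapped arrays of a replicate were averaged, and probes were kept where the signal exceeded the background by 2.6 background SDs on at least 50% of arrays in 1 of the 6 RNA groups. The brightest probe stood for a gene, and a member's brightest positioned probe for a member. The 9 biological replicates entered 1 fit (lmFit, eBayes) with a mean per treatment, 6 residual and 3.33 prior degrees of freedom, and Benjamini-Hochberg adjustment over 28911 features at 0.05. The siRNA comparisons, with 2 replicates, borrow much of their spread from UNC0638. Precision is limited by the number of arrays. Positions are those of build 37.1 in the files, and promoters those of RefSeq on GRCh38.p14.

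The members and gene lists were chosen with earlier results of these data known. Named were the members past the threshold (at most 12 per treatment), the 3 highest and 3 lowest per treatment, and ZNF85, ZNF208, ZNF253, ZNF431 and ZNF675. Replicate numbers were not used to pair samples. Deviations of same-numbered replicates from their group means correlated between -0.29 and 0.37. With 2 replicates per siRNA these deviations mirror each other, so the check cannot show whether samples were paired. Alternatives were other background corrections, normalizations, filters, probes, dye and GC corrections, blocks and left-out replicates.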

Additional observations from a re-analysis of the deposited data

Results flagged for a closer look

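One value stood apart from the other replicates of its group among 28 sets of 5 UNC0638 replicates examined, which were the named tested members and the member median. ZNF429 was at -0.0585 in UNC0638 replicate 3, while the other 4 replicates lay between -0.45 and -0.36. Chance alone marks about 1 in 20 groups. Replicate 3 was also the highest of the 5 UNC0638 replicates in 31 of the 56 tested members and the lowest in 5. Its log2 ratios spread more widely over all features (SD 0.51) than those of the other UNC0638 replicates (0.17 to 0.29). Of these, replicates 1 and 2 are means of 2 arrays. Per array the SD was 0.50 in replicate 3 and 0.22 to 0.31 on the other UNC0638 arrays.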

How the results depend on the processing

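The member median under UNC0638 kept its direction under every alternative run, between -0.31 and -0.08, and 0 members rose in any of them except the authors' log10 table, where 1 did. The count of members that fell with UNC0638, 9 as reported, was 4 with the authors' log2 ratios, 2 changed with their log10 table, 19 with the GC trend removed, 17 with the set as a block, 36 within set 1, 0 within set 2, 4 on its own replicates and 5 to 16 with 1 replicate left out. WIZ siRNA gave 0 called members except within set 1 (12) and on its own replicates (19), and its median of -0.084 was -0.105 with the authors' log2 ratios, -0.126 with the log10 table, -0.106 with array medians, -0.073 with the GC trend removed, -0.075 without the filter and -0.088 to -0.076 with 1 replicate left out.

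The 13 members called with G9a siRNA were 21 on its own replicates and 0 to 21 with 1 replicate left out, 0 without G9a siRNA replicate 2 and 21 without UNC0638 replicate 3. The G9a siRNA median of 0.060 turned to -0.030 with array medians and to -0.0083 with the GC trend removed. It was 0.126 and 0.262 with the authors' log2 and log10 ratios, 0.127 with the dye effect removed, 0.016 with probes above background on every array, 0.136 with all probes of a symbol, which was chosen after seeing the data, and 0.060 to 0.128 with 1 replicate left out. EHMT2 stayed between -1.67 and -1.65 with 1 replicate left out, but without G9a siRNA replicate 2 its limma adjusted p was 0.106, as the fit then assumes the lone sample varies like the rest.

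G9a siRNA minus UNC0638 passed for 13 members, and for 4 and 0 with the authors' log2 and log10 ratios. With array medians it passed for 6 and on their own replicates for 3. Within set 2 it passed for 0 members and 0 of all features. The count also changed with single replicates left out. Those replicates were UNC0638 replicates 1, 2, 3 and 4 (4, 3, 24 and 2), either WIZ siRNA replicate (3 each) and G9a siRNA replicates 1 and 2 (8 and 0). G9a siRNA minus WIZ siRNA passed for 8, for 5 and 2 with the authors' log2 and log10 ratios, 5 with array medians, 4 with the dye effect removed, 24 on their own replicates and 0 to 17 with 1 replicate left out, 17 without UNC0638 replicate 3 and 5 without G9a siRNA replicate 1. WIZ siRNA minus UNC0638 passed for 10 within set 1 (4.59% of all features called in that fit). With the replicate number as a block, 7, 0 and 14 members were called with UNC0638, WIZ siRNA and G9a siRNA, and G9a siRNA minus UNC0638 and minus WIZ siRNA gave 9 and 4. The causes of these changes were not tested.

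With 2 replicates per siRNA, and G9a siRNA in 1 dye orientation, depth and spread limit the siRNA calls, and 17 of 56 members were near background on some arrays.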
